A study of Mus musculus with 21 samples.

Results

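The actin cytoskeleton remodeling genes described here are 37 genes that encode actin itself and the proteins that build, cut, cap, cross-link and pull on its filaments. They were taken by name from a table of 45706 genes, and all 37 passed the filter of at least 5 counts in total over all libraries that left 23815 genes for testing. The group holds the 2 actin monomers, 6 genes of monomer binding and turnover, 9 genes of filament nucleation, 7 of capping, severing and elongation, 3 of cross-linking, 4 tropomyosins, 4 motor genes, and 2 genes that encode a membrane linker and an intermediate filament protein.

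Microglia and infiltrating myeloid cells had been sorted from mouse brain after controlled cortical impact (CCI), an open-head model of traumatic brain injury, and their RNA was sequenced. Wild-type (WT) mice were compared with Fgg γ390–396A mice, a knock-in line whose fibrinogen γ chain carries alanines in place of the motif that fibrin uses to bind the CD11b/CD18 integrin of myeloid cells, with clotting left intact. The animals were males of 17 to 24 weeks on a C57BL/6 background, and each library was made from 2 pooled brains, from which 40000 CD45low CD11b+ microglia or 25000 CD45hi CD11b+ myeloid cells were collected. The 7 groups held 3 libraries each. They were sham microglia (anaesthesia, scalp incision and craniotomy with no impact), WT and Fgg γ390–396A microglia at 1 d and at 7 d post-CCI, and WT and Fgg γ390–396A infiltrating myeloid cells at 1 d. The titles of the sham libraries give no genotype and no day of collection. The sham mice were taken as WT, and the same sham group is the baseline at 1 d and at 7 d. No sham group labelled with the Fgg γ390–396A genotype was analysed here. In a comparison of those mice with sham the genotype and the injury therefore cannot be told apart.

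Actin monomers polymerise into polar filaments. Profilin and the β-thymosins hold and deliver the monomers, the Arp2/3 complex starts branches on existing filaments, capping protein stops growth at the fast-growing end, cofilin severs old filaments, and tropomyosins coat them and set which myosins can bind. In microglia this machinery drives the movement of processes, phagocytosis and the change from a ramified to an amoeboid shape.

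Total counts per library ran from 18896682 to 51875403, and ribosomal RNA genes took 43.0 to 58.5% of them. Levels are given as CPM, the number of counts per 1000000 counts of a library total corrected by the trimmed mean of M-values (TMM), and since the deposited counts had transcript length divided out within a library, levels of different genes may be set side by side. A count of 3 corresponded to 0.0448 to 0.158 CPM. The summed level of 10 microglial markers (such as P2ry12 and Tmem119) was 10820 to 12057 CPM in sham microglia, 2883 to 4550.1 CPM in WT microglia at 1 d, 5125 to 6746 CPM in Fgg γ390–396A microglia at 1 d, and 366 to 996 CPM in the myeloid cells. The 8 neutrophil markers summed to 1.91, 87.8 and 615 CPM in the 3 sham libraries and to 123 to 772 CPM in WT microglia at 1 d, which overlapped, against 2490.2 to 12936 CPM in the myeloid cells. These sums stand beside every result on the members below, and their part in those results was not tested. Fgg, the altered gene, had no count in any WT library and 0 to 14 counts in Fgg γ390–396A libraries, and its level does not check a substitution of amino acids.

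Actb and Tmsb4x led the group in every condition. In sham microglia Actb, which encodes β-actin, stood at 2179 ± 237 CPM (SD, n = 3) and Tmsb4x, which encodes the monomer-sequestering thymosin β4, at 1965 ± 163 CPM, and the 2 genes made up 59.1% of the summed level of all 37 members. Pfn1 (profilin) followed at 343 ± 101 CPM and Actg1 (γ-actin) at 237 ± 19.7 CPM. At the low end were the severing and capping gene Gsn (gelsolin) at 1.29 ± 0.493 CPM and the tropomyosin gene Tpm2 at 0.981 ± 0.496 CPM, so that the members spanned over 3 orders of magnitude. The order was kept at the top and changed below it in WT microglia at 1 d, where Cfl1 rose from rank 7 to rank 4, Tpm4 from rank 29 to rank 13 and Flna from rank 28 to rank 19.

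**Figure D1:**
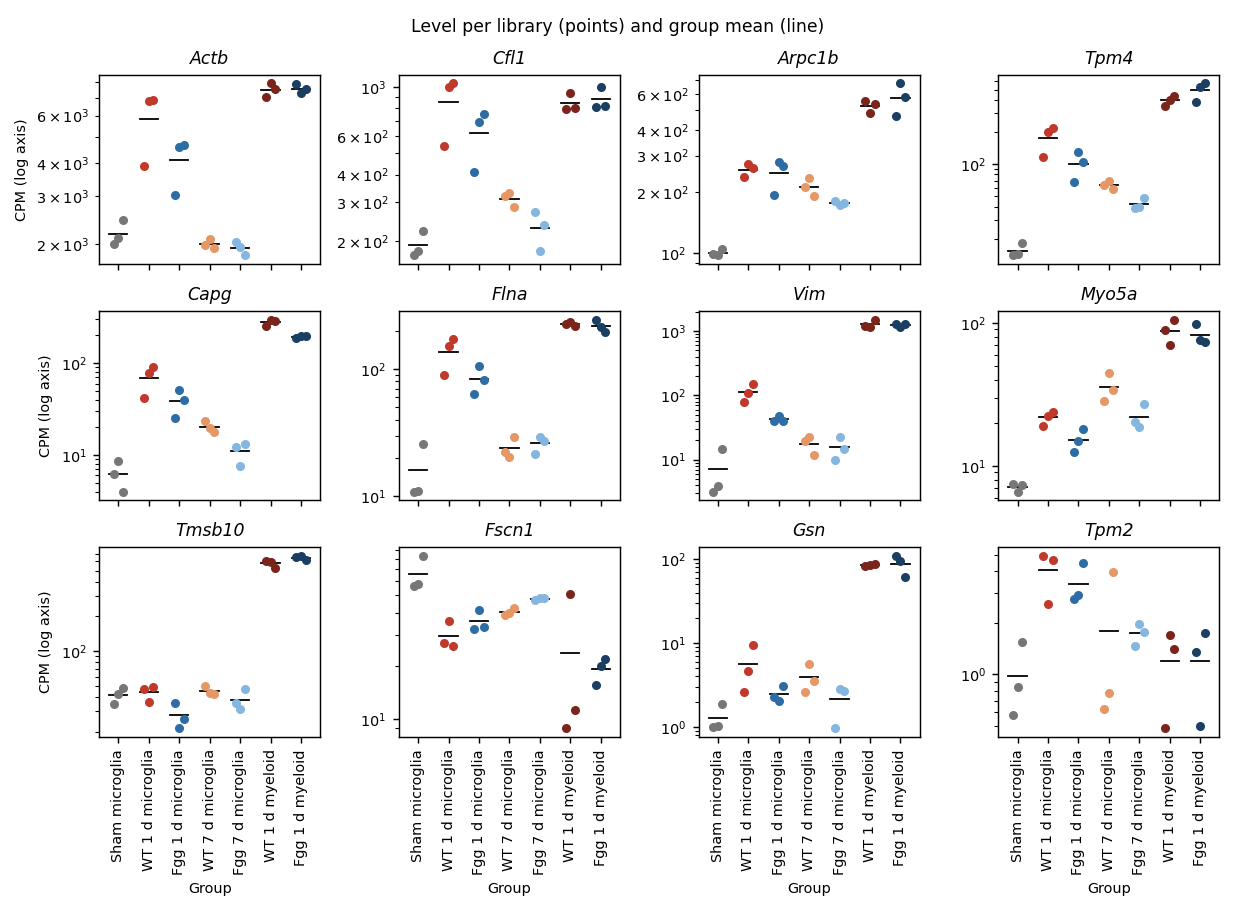
Level of 12 members in each library of the 7 groups, in TMM-scaled CPM on a log axis that differs between panels, 1 point a library and a line at the group mean. Actb, Tpm4, Capg, Flna and Vim step up from sham to WT microglia at 1 d without overlap and are lower again at 7 d, while Tmsb10 stays at 50.1 CPM or less in all microglia and is at 529.7 CPM or more in all myeloid libraries.

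Promoter sequence is shown for the 3 members whose promoter window held a CArG box, the element bound by serum response factor, a known regulator of actin genes. Windows of 250 bases before to 50 bases after the annotated start (RefSeq, GRCm38.p6) were found for 36 of the 37 members, all but Actb. The box, searched on both strands, lay in 3 of the 36, which is 8.33%, against 1.81% of 27025 genes. It is printed in capitals, 5′ to 3′ on the strand of the gene, and begins 90 bases before the start of Actg1 at chr11:120348551-120348610 (minus strand), 32 bases before the start of Myo1e at chr9:70207293-70207349 (plus strand) and 250 bases before that of Arpc4 at chr6:113377863-113377897 (plus strand).
Actg1: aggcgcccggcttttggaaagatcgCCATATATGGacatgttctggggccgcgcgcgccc
Myo1e: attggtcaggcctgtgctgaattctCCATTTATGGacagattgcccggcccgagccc
Arpc4: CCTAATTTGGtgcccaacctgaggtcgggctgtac
These are matches of letters and not bound sites. Of the other motifs searched, GGGCGG (both strands) lay in 77.8% of the members' windows and 38.2% of all genes, TATAAA in 8.33% and 15.7%, TGACTCA in 5.56% and 5.95%, and GAGGAAGT in 2.78% and 3.69%.

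The comparison of WT microglia at 1 d post-CCI with sham addresses what the injury does to this machinery. Of the 37 members, 31 rose and none fell at an adjusted p under 0.05, where 10.7% of all genes tested rose. The median log2 fold change of the members was 1.08, against 0 over all genes. The increases covered both actin monomers, 5 of 6 genes of monomer binding and turnover, all 8 genes of the Arp2/3 complex, 5 of 7 capping, severing and elongation genes, 2 of 3 cross-linkers, 3 of 4 tropomyosins, all 4 motor genes, and both Msn and Vim. Of the 10 microglial markers 8 fell in this comparison, and none of the 8 neutrophil markers passed the test. Of the 8 monocyte markers 1 rose. Their sums were 6.28, 6.45 and 47.6 CPM in the sham libraries and 66.7, 6.48 and 17.6 CPM at 1 d, which overlapped. Of 15 genes of the response to tissue dissociation 4 rose and 1 fell, with sums of 1932, 580 and 834 CPM in the sham libraries and 1845 to 2296 CPM at 1 d. Among 5 oligodendrocyte markers 2 rose, and among 5 astrocyte markers 1 rose. Of the 6 platelet markers 1 rose and 1 fell. They summed to 50.1, 40.5 and 35.9 CPM in the sham libraries and 17.1, 6.55 and 13.1 CPM at 1 d. The part of all these markers in the result was not tested. In bulk samples such as these, more cells of a type and more RNA per cell cannot be told apart.

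**Figure D2:**
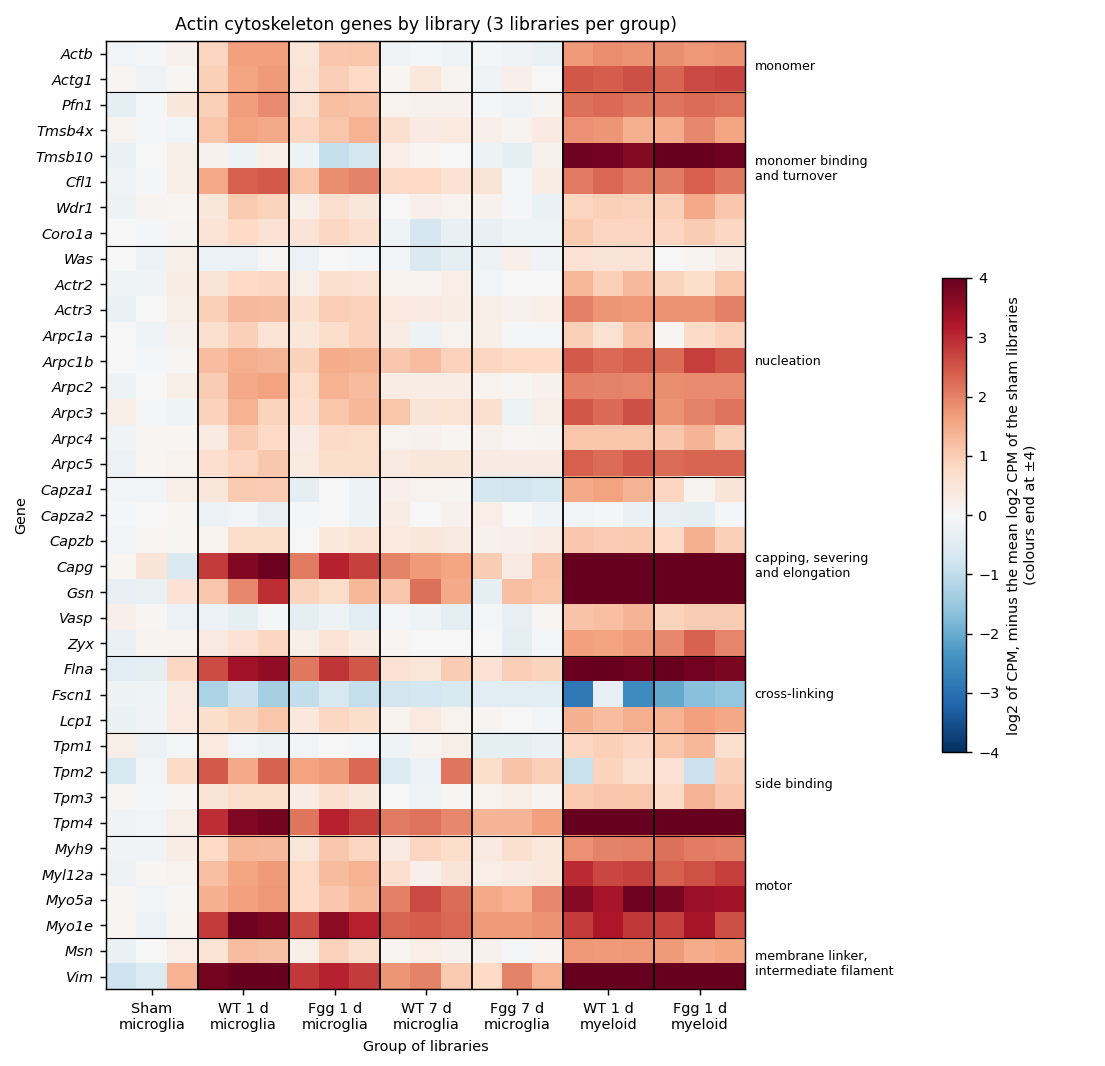
Log2 CPM of each member (rows, by role) in each of the 21 libraries (columns, by group), minus the mean log2 CPM of the 3 sham libraries, with colours ending at 4 either way. Most rows turn red in the microglia at 1 d and pale again at 7 d, and Tmsb10, Capg, Gsn, Tpm4 and Vim are darkest in the myeloid cells.

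Tpm4, a tropomyosin of non-muscle cells, had the smallest adjusted p. It stood at 13.9, 14.2 and 18.1 CPM in the sham libraries and at 118, 199.7 and 217 CPM in WT microglia at 1 d (log2 fold change 3.53 ± 0.26, adjusted p = 8.4e-08). Every injured library lay far above the highest sham library. Myo1e, a motor of class I that links membranes to actin at endocytic sites, was at 3.89, 3.11 and 4.00 CPM in sham and 25.3, 53.7 and 49.9 CPM at 1 d (log2 fold change 3.55 ± 0.30, adjusted p = 2.1e-07). Capg caps the fast-growing filament end without severing. Its level was 6.28, 8.5 and 4.00 CPM in sham and 41.3, 77.8 and 89.7 CPM at 1 d (log2 fold change 3.48 ± 0.33, adjusted p = 6.0e-07), and the groups did not overlap.

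Flna encodes filamin A, which joins filaments into a loose gel and ties them to membrane receptors. It stood at 10.9, 11 and 26.0 CPM in sham and 89.6, 151 and 172 CPM at 1 d (log2 fold change 3.10 ± 0.32, adjusted p = 1.6e-06). Vim, the intermediate filament gene vimentin, had the largest fold change of the group, from 3.19, 3.83 and 14.6 CPM to 79.4, 108 and 150.1 CPM (log2 fold change 3.95 ± 0.47, adjusted p = 7.0e-06). For both genes the third sham library was the highest of its group and still lay below every injured library. That library also had the highest sum of neutrophil markers among sham, and Vim stood at 1160.0 to 1503 CPM in WT myeloid cells. Cfl1, the severing protein cofilin 1, rose from 172, 179.8 and 221 CPM to 537, 996 and 1039.7 CPM (log2 fold change 2.17 ± 0.25, adjusted p = 5.9e-06), with 796 to 939 CPM in WT myeloid cells, a range that lies within that of the microglia.

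Actb, Actg1 and Tmsb4x rose by a smaller factor than the genes above. Actb went from 1991, 2102 and 2445 CPM to 3904, 6803 and 6826 CPM (log2 fold change 1.42 ± 0.21), Actg1 changed by 1.45 ± 0.19 and Tmsb4x by 1.42 ± 0.20 on the same scale. The first WT library at 1 d was the lowest of its group for all the genes named so far in this comparison, and it also had the largest TMM factor of the 3, 1.11 against 0.741 and 0.752. Among the Arp2/3 genes the log2 fold changes ran from 0.71 to 1.39, with Arpc2 at 1.39 ± 0.18, Arpc1b at 1.35 ± 0.16 and the actin-related Actr3 at 1.16 ± 0.16. The myosin genes Myo5a, Myl12a and Myh9 changed by 1.61 ± 0.21, 1.51 ± 0.19 and 1.15 ± 0.19.

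6 members did not pass the test at 1 d. Fscn1, which encodes the bundling protein fascin, was at 56.1, 57.8 and 83.5 CPM in sham and 26.8, 36.0 and 25.9 CPM at 1 d, so that all injured libraries lay lower (log2 fold change -1.15 ± 0.41, adjusted p = 0.065). DESeq2 called Fscn1 and Capza2 lower, and edgeR called Fscn1 lower with DESeq2 size factors, with library totals, with totals of protein-coding genes, with the replicate block and in a fit of these 2 groups alone. Tmsb10, Was, Capza2, Vasp and Tpm1 had log2 fold changes of 0.08, -0.15, -0.22, -0.24 and 0.04. Was is the activator of Arp2/3 in blood cells and Vasp speeds filament elongation, so that neither the activator nor this elongation factor showed the increase measured in the Arp2/3 genes.

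The size of the increase depended on how libraries were put on a common scale. With raw library totals in place of TMM, the median of all genes moved to -0.67 and that of the members to 0.31, a distance of 0.99, and 15 members rose while Capza2, Fscn1, Vasp and Was fell. Under that scaling 7 of the 31 members (Actr2, Arpc1a, Arpc4, Capzb, Coro1a, Tpm3 and Zyx) had a fold change below 0 that did not pass the test. The share of the members in all counts outside ribosomal RNA does not use TMM. It was 1.84, 1.81 and 1.92% in the sham libraries and 2.95, 3.58 and 3.58% in WT microglia at 1 d. The groups did not overlap, and the two-sided exact permutation test gave p = 0.1, the smallest that 3 against 3 libraries allow. Actb and Tmsb4x alone made up 59.1% of the members' values in sham and 62.6% in WT microglia at 1 d. The share thus mostly reflects these 2 genes.

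**Figure D3:**
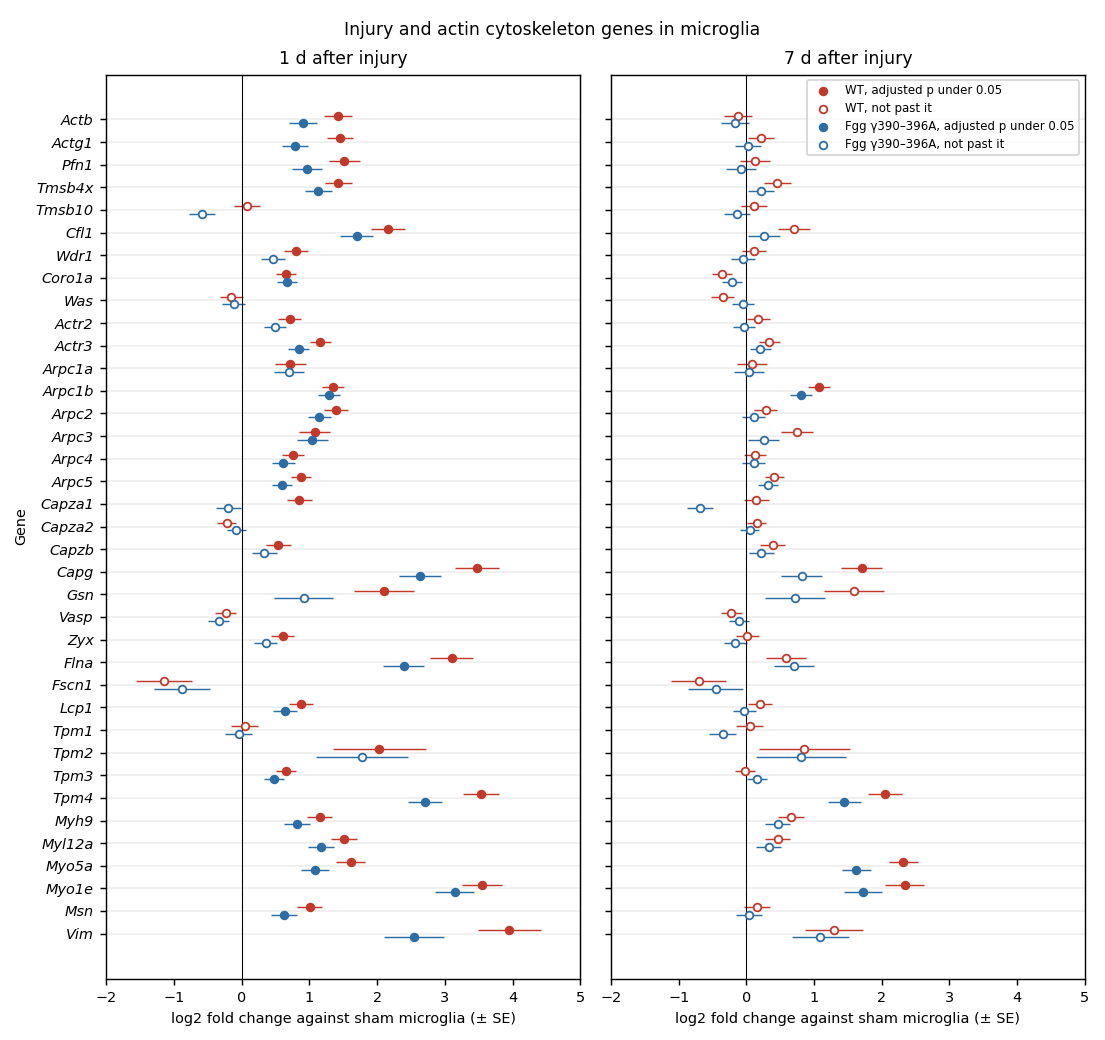
Log2 fold change against sham of each member in WT and Fgg γ390–396A microglia at 1 d and 7 d, with bars of 1 SE from the edgeR fit and filled points where the adjusted p was under 0.05. At 1 d Vim, Myo1e, Tpm4, Capg and Flna lie above 2 in both genotypes, and at 7 d Myo5a and Myo1e lie furthest above 0 in both.

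The balance between related genes also differed between injured and sham libraries. The Tpm4 to Tpm3 ratio was 0.0671, 0.0750 and 0.0870 in the sham libraries and 0.408, 0.608 and 0.646 in WT microglia at 1 d, and Tpm3 itself rose by 0.66 on the log2 scale. It remained above every sham library at 7 d, at 0.313, 0.376 and 0.281. Arpc1b and Arpc1a encode alternative forms of the same Arp2/3 subunit, and Arpc1b is the form of blood cells. Their ratio was 9.23, 10.2 and 8.68 in sham, 14.2, 13.1 and 16.5 at 1 d and 15.9, 25.2 and 16.2 at 7 d, and neither injured group overlapped with sham. Thymosin β4 gained over thymosin β10, with a Tmsb4x to Tmsb10 ratio of 61.9, 45.5 and 38.0 in sham and 90.2, 166 and 114 at 1 d. By contrast the Actb to Actg1 ratio overlapped between the groups, with means of 9.18 and 8.98. Each ratio that did not overlap had an exact permutation p of 0.1, adjusted to 0.17 over the 24 tests of ratios and shares.

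**Figure D4:**
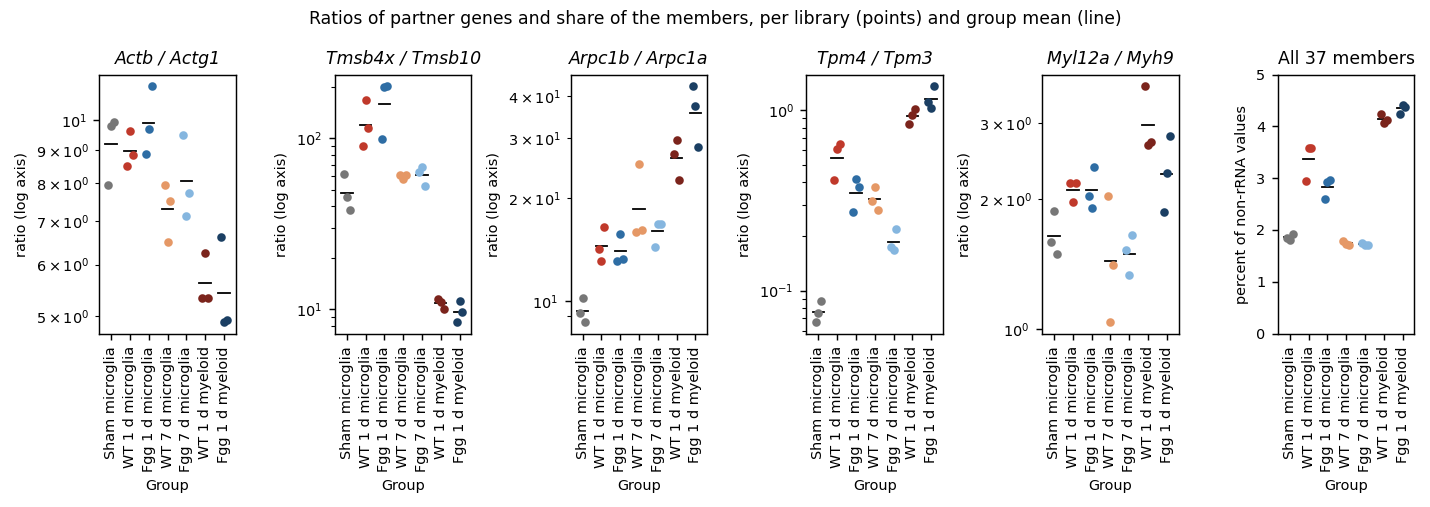
Ratios of related members (log axes) and the share of the 37 members in the counts outside ribosomal RNA in percent (linear axis from 0), 1 point a library and a line at the group mean, for the 7 groups. The Tpm4 to Tpm3 ratio is under 0.1 in sham microglia and near 1 in the myeloid cells, and the Tmsb4x to Tmsb10 ratio is highest in the microglia at 1 d and lowest in the myeloid cells.

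In Fgg γ390–396A microglia at 1 d, 23 members rose against WT sham and none fell, where 7.6% of all genes tested rose. The median log2 fold change was 0.79. All 23 were among the 31 of WT mice, with the same sham libraries on the other side of both comparisons. The 8 that passed in WT mice alone were Actr2, Arpc1a, Capza1, Capzb, Gsn, Tpm2, Wdr1 and Zyx, of which Capza1 also passed in Fgg γ390–396A mice once its copies were summed (log2 fold change 0.75). The leading genes were Myo1e (log2 fold change 3.14 ± 0.29, adjusted p = 1.2e-06), Tpm4 (2.71 ± 0.25), Capg (2.63 ± 0.32), Arpc1b (1.29 ± 0.16), Flna (2.39 ± 0.31) and Cfl1 (1.69 ± 0.25). Tpm4 stood at 67.9, 131 and 104 CPM in these libraries and Myo1e at 22.0, 43.8 and 31.7 CPM, both above all sham libraries. The number of called members fell to 16 without Fgg γ390–396A replicate 2 and rose to 26 without its replicate 1. With library totals 11 members rose and 4 fell, with a median of 0.34 for the members and -0.34 for all genes, and with totals of protein-coding genes 15 rose and 2 fell.

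At 7 d few members passed the test against sham. In WT microglia 5 members rose and none fell, where 2.42% of all genes tested rose, and in Fgg γ390–396A microglia 4 rose and none fell, where 0.831% rose and 0.0546% fell. Myo5a, Myo1e, Tpm4 and Arpc1b passed in both genotypes, and Capg in WT mice alone, again with the sham libraries shared. Myo5a, a processive motor that carries vesicles along actin, was at 7.49, 6.61 and 7.37 CPM in sham, 28.6, 44.8 and 33.9 CPM in WT microglia at 7 d and 20.3, 18.7 and 27.2 CPM in Fgg γ390–396A microglia at 7 d. The log2 fold changes were 2.32 ± 0.22, adjusted p = 1.2e-05 in WT and 1.62 ± 0.21, adjusted p = 0.00069 in Fgg γ390–396A mice, and neither injured group overlapped with sham. Myo1e changed by 2.34 ± 0.28 and 1.72 ± 0.28, Tpm4 by 2.05 ± 0.25 and 1.45 ± 0.24, and Arpc1b by 1.07 ± 0.16 and 0.81 ± 0.16 in WT and Fgg γ390–396A mice, respectively. The call of Arpc1b was lost in both genotypes with library totals, and in Fgg γ390–396A mice also without any 1 of the Fgg γ390–396A libraries or without sham replicate 1 or 2. Both monomers were near their sham level, with log2 fold changes in WT mice of -0.13 for Actb and 0.21 for Actg1, neither of which passed the test. The members' share of counts was 1.79, 1.73 and 1.72% in WT microglia at 7 d, below all sham libraries (exact permutation p = 0.1). With raw library totals in place of TMM the WT count at 7 d was 4 higher and 5 lower, while the median of all genes moved to -0.47.

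The times were also compared directly. From 1 d to 7 d in WT microglia 22 members fell and 1 rose, where 6.6% of all genes tested fell and 3.7% rose. Flna fell from 89.6, 151 and 172 CPM to 22.2, 20.5 and 29.4 CPM (log2 fold change -2.52 ± 0.31, adjusted p = 3.8e-05), and all libraries at 7 d lay below all at 1 d. Actb changed by -1.55 ± 0.21, Coro1a (coronin 1A, which binds Arp2/3 in leukocytes) by -1.01 ± 0.15, Actg1 by -1.23 ± 0.19, Arpc2 by -1.11 ± 0.18 and Tpm4 by -1.48 ± 0.24. Myo5a was the member that rose, from 19.1, 22.3 and 24.0 CPM to 28.6, 44.8 and 33.9 CPM (log2 fold change 0.71 ± 0.21, adjusted p = 0.032). This call was lost in a fit of these 2 groups alone and without any single library of the comparison other than WT replicate 1 at 7 d. In Fgg γ390–396A microglia 14 members fell and none rose, where 4.56% of all genes fell and 1.08% rose. They were led by Coro1a (-0.88 ± 0.15), Arpc2 (-1.04 ± 0.17), Capg (-1.81 ± 0.30), Cfl1 (-1.44 ± 0.25), Flna (-1.69 ± 0.30) and Myo1e (-1.42 ± 0.27), and Myo5a changed by 0.54 ± 0.21 without passing the test. Whether the change over time differed between the genotypes is tested with the genotype comparisons.

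Infiltrating myeloid cells and microglia were compared at 1 d within each genotype. In WT mice 20 members were higher in the myeloid cells and none lower, where 7.56% of all genes were higher, and in Fgg γ390–396A mice 27 were higher and none lower, where 9.33% were higher and 12.1% lower. Of these, 19 were called in both genotypes. With totals of protein-coding genes in place of TMM, 13 were higher and 2 lower (Myo1e and Tpm2) in WT mice, with a median of 0.23 for the members and -0.40 for all genes, and the Fgg γ390–396A cells had 20 members higher and 4 lower. With library totals the Fgg γ390–396A count was 18 higher and 3 lower, and DESeq2 called 28 higher and 1 lower in WT mice. Tmsb10 set the cell types apart most clearly. It was at 46.6, 36.1 and 49.0 CPM in WT microglia and 610.0, 599 and 529.7 CPM in WT myeloid cells (log2 fold change 3.72 ± 0.21, adjusted p = 7.8e-09), and at 35.7, 21.5 and 25.8 CPM and 654, 671 and 614 CPM in the Fgg γ390–396A cells (log2 fold change 4.55 ± 0.22). The Tmsb4x to Tmsb10 ratio was accordingly 119.8 in WT microglia and 10.8 in WT myeloid cells. Tmsb10 has a copy, Gm9844, whose counts came to 9.46% of its own, and reads may be split between them.

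Gsn and Vim showed the other large differences. Gsn was at 2.60, 4.63 and 9.56 CPM in WT microglia and 84.1, 85.4 and 88.4 CPM in WT myeloid cells (log2 fold change 3.94 ± 0.45, adjusted p = 5.1e-06), and Vim at 1209.6, 1160.0 and 1503 CPM in the myeloid cells (log2 fold change 3.52 ± 0.46, adjusted p = 1.9e-05). In Fgg γ390–396A cells the log2 fold changes were 5.16 ± 0.48 and 4.87 ± 0.49. Arpc5 (1.48 ± 0.15), Myo5a (2.01 ± 0.21) and Vasp (1.46 ± 0.16) completed the members with the smallest adjusted p in WT mice. The 8 monocyte markers summed to 830 to 1345.0 CPM in the myeloid cells and to 6.28 to 66.7 CPM in the microglia. The 6 markers of border macrophages summed to 1003 to 1920 CPM in the myeloid cells and to 4.24 to 217 CPM in the microglia. Of these 6 markers, 1 was called higher in WT and 2 in Fgg γ390–396A myeloid cells. The part of such cells in the differences was not tested. The summed level of 10 mural and fibroblast markers, cells that also express Vim and Gsn, was at most 12.5 CPM in any library. Genes of the response to tissue dissociation summed to 3554 to 5826 CPM in WT myeloid cells and 1845 to 2296 CPM in WT microglia at 1 d, and 9 of these 15 genes were higher in the myeloid cells.

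17 members did not pass the test between the WT cell types. Actb, Tmsb4x, Cfl1 and Coro1a had log2 fold changes of 0.36 ± 0.21, 0.26 ± 0.19, -0.02 ± 0.24 and 0.27 ± 0.15. Myo1e, which rose the most among the motors in injured microglia, was at 25.3, 53.7 and 49.9 CPM in WT microglia and 25.2, 34.1 and 25.8 CPM in WT myeloid cells (log2 fold change -0.60 ± 0.27, adjusted p = 0.15). Fscn1 was at 8.95, 51.1 and 11.3 CPM in WT myeloid cells, where the second library stood apart, and at 15.7, 20.1 and 22.0 CPM in Fgg γ390–396A myeloid cells. Tpm2 was higher in the microglia (4.92, 2.57 and 4.65 CPM against 0.484, 1.68 and 1.4 CPM) with an adjusted p of 0.089.

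The genotype comparison asks what the loss of fibrin binding to CD11b/CD18 changes in the injured brain. Fgg γ390–396A and WT microglia at 1 d differed in 1 of 37 members, Capza1, at an adjusted p under 0.1, where 0.0546% of all genes differed in either direction. Of the 37 log2 fold changes 33 were below 0, with a median of -0.29, against 0 over all genes. In 4 members (Capza1, Myo5a, Tmsb10 and Vim) every Fgg γ390–396A library lay below every WT library, where 2.99% of all genes did. With library totals these were Actg1, Capza1, Myo5a and Vim, where 1.18% of all genes did, and with totals of protein-coding genes 8 members (Actg1, Actr2, Actr3, Arpc5, Capza1, Myl12a, Myo5a and Vim), where 2.92% did. Apart from Capza1, the members with the smallest p were Actg1 (log2 fold change -0.66 ± 0.19, adjusted p = 0.74), Tpm4 (-0.82 ± 0.24, adjusted p = 0.74) and Tmsb10 (-0.67 ± 0.19, adjusted p = 0.74). Vim was at 40.3, 47.3 and 39.4 CPM in Fgg γ390–396A and 79.4, 108 and 150.1 CPM in WT microglia (log2 fold change -1.41 ± 0.42, adjusted p = 0.75). Actg1, Tpm4, Tmsb10 and Vim did not pass the edgeR test, while DESeq2 called these 4 and Capza1. The share of all genes that DESeq2 called is not given here. The sign of the members' median depended on the scaling. With raw library totals it was 0.01 and that of all genes 0.29. The median of the members thus lay below that of all genes with library totals as with TMM. The dissociation-response genes summed to 1845 to 2296 CPM in the WT and 1296 to 2255 CPM in the Fgg γ390–396A libraries, which overlapped, while the sums of microglial markers given above did not. Without WT replicate 1, 3 members passed (Capza1, Actg1 and Tpm4). Without any other single library of these 2 groups none did.

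At 7 d no member passed between the genotypes, where 0.0378% of all genes did. The edgeR test gave 6 of 37 members an unadjusted p under 0.05, as it did 795 of 23815 genes. DESeq2 called 1 member, Capza1. The median log2 fold change was -0.18 and 31 of 37 values were below 0. In 16 members every Fgg γ390–396A library lay below every WT library, where 5.28% of all genes did, among them Tpm4 at 39.1, 39.3 and 47.8 CPM against 63.8, 69.3 and 58.3 CPM, and Myo5a at 20.3, 18.7 and 27.2 CPM against 28.6, 44.8 and 33.9 CPM. That count fell to 4 with raw library totals (Capg, Capza1, Myo1e and Tpm4), where 2.08% of all genes did, and to 6 with totals of protein-coding genes, where 3.51% did. Every Fgg γ390–396A library lay above every WT library in 2 members under TMM, where 5.80% of all genes did. With library totals there were 6 such members, where 14.5% of all genes did, and with totals of protein-coding genes 3, where 8.89% did. The 10 microglial markers summed to 6347 to 7211 CPM in the WT and 7509 to 8722 CPM in the Fgg γ390–396A libraries at 7 d. These sums did not overlap, though no single marker passed the test, and their part in the values of the members was not tested. In the myeloid cells at 1 d Capza1 again was the single member called, where 0.495% of all genes were, and the median was -0.02. In 6 members (Arpc2, Arpc3, Capg, Capza1, Vasp and Was) all Fgg γ390–396A libraries lay lower, where 4.85% of all genes did. After Capza1 the smallest p belonged to Zyx (log2 fold change 0.43 ± 0.17, adjusted p = 0.35) and Was (-0.42 ± 0.17, adjusted p = 0.36), and DESeq2 called Capza1 and Zyx. Without WT replicate 2, the library with the high Fscn1 value, edgeR called Fscn1 and no longer Capza1.

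The effect of genotype in microglia at 1 d was set against that at 7 d, and against that in myeloid cells, by interaction terms. No member passed in the first, where 0% of all genes did, and DESeq2 called none. No member had an unadjusted p under 0.05 in edgeR, where 653 of 23815 genes did. In the second no member passed, where 0.0462% of all genes did, and DESeq2 called 3 members (Actg1, Tpm4 and Zyx). There 7 members had an unadjusted p under 0.05 in edgeR, where 1994 of 23815 genes did.

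Capza1, the α1 subunit of capping protein, was the single member called between the genotypes in the edgeR fit of all libraries, at 1 d in both cell types, and it shares most of its sequence with a copy. The gene lies at chr3:104822779-104864505 (GRCm38, minus strand), 21.8 Mb from Fgg on the same chromosome. Tpm3 lies on that chromosome too, closer to Fgg at chr3:90072649-90100902, and was not called between the genotypes. Whether the distance to Fgg bears on these calls was not tested. The copy of Capza1, the pseudogene Gm3608, lies at chr1:105455971-105458829 and matches Capza1 at 99.5% of 2859 aligned bases. Of the 3094 stretches of 100 bases in the Capza1 transcript, 60.5% occur unchanged in Gm3608. A read from them cannot be placed by its own sequence, though its mate in the pair may still differ between the copies. Within the 858 coding bases the annotated sequences differ by 3 substitutions, T543C, A664G and A760G (Capza1 base, position counted from the start codon, Gm3608 base), and by 1 base that is fewer in Gm3608 near position 802. The stretches around the substitutions in exon 7 and exon 10 are shown as 2 examples of places where the copies differ, with the differing base in capitals. They lie at chr3:104834120-104834160 (minus strand) and chr1:105456505-105456545 (plus strand) for T543C, and at chr3:104825065-104825105 (minus strand) and chr1:105456722-105456762 (plus strand) for A760G.
Capza1, T543C: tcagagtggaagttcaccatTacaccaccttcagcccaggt
Gm3608, T543C: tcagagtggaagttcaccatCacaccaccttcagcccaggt
Capza1, A760G: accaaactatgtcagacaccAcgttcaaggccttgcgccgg
Gm3608, A760G: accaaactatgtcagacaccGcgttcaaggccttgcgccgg

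The counts assigned to the gene and to its copy moved in opposite directions. In microglia at 1 d Capza1 was at 95.5, 145 and 142 CPM in WT and 54.2, 68.8 and 61.6 CPM in Fgg γ390–396A libraries (log2 fold change -1.05 ± 0.19, adjusted p = 0.048). Gm3608 was at 6.87, 5.54 and 4.33 CPM and 41.1, 77.3 and 67.0 CPM, a log2 fold change of 3.47 ± 0.26 with an adjusted p of 5.2e-07. The same was measured at 7 d, where Capza1 stood at 81.2, 77.1 and 76.5 CPM in WT and 43.2, 42.1 and 46.5 CPM in Fgg γ390–396A libraries and Gm3608 at 3.54, 5.45 and 4.75 CPM and 36.7, 46.1 and 44.6 CPM. In the myeloid cells Capza1 was at 202, 212 and 181 CPM and 126, 75.8 and 101 CPM, with a log2 fold change of -0.97 ± 0.19, adjusted p = 0.034, and Gm3608 at 7.69, 7.00 and 7.21 CPM and 107, 99.1 and 114 CPM. Gm3608 separated all 9 Fgg γ390–396A libraries from all 12 WT libraries, sham included, where it was at 2.07, 2.70 and 3.87 CPM.

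Summed with its copies, Capza1 did not differ between the genotypes beyond the spread of the libraries. The sum was 133 ± 26.4 CPM in WT and 124 ± 26.2 CPM in Fgg γ390–396A microglia at 1 d, 83.0 ± 1.73 and 87.0 ± 6.13 CPM at 7 d, and 206 ± 15.8 and 209.6 ± 30.8 CPM in the myeloid cells (SD, n = 3 each). The log2 fold changes of the sum were -0.10, 0.07 and 0.03, each with an adjusted p of 1 in edgeR. Capza1 on its own had an adjusted p between 0.11 and 0.37 when any 1 library of the 1 d comparison other than WT replicate 1 was left out, and 0.45 when the fit held these 2 groups alone. In the myeloid cells it was 0.12 without WT replicate 2 and 0.11 without Fgg γ390–396A replicate 2. How reads of these mice divide between the gene and the copy was not tested, since the reads were not used here.

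**Figure D5:**
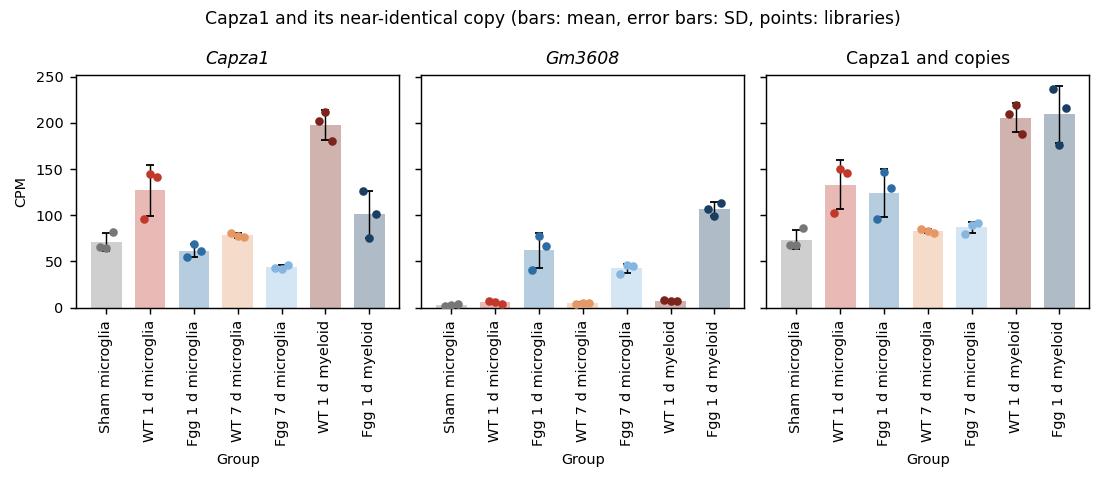
Level of Capza1, of its copy Gm3608 and of their sum with further copies in each library of the 7 groups, in TMM-scaled CPM on a linear axis from 0, with bars at the group means and error bars of 1 SD. Gm3608 is near 0 in every WT library and reaches 36.7 CPM or more in every Fgg γ390–396A library, while the sums of the genotypes overlap in each pair of groups.

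Other members also share sequence with copies, and their values are uncertain where reads could be split. Beside the 9.46% for Tmsb10, the copy with the most counts reached 4.53% of the counts of Actg1 (Gm12715) and 3.74% of Cfl1 (Gm6180). For Tpm4 (Gm7809), Actr3 (Gm15899) and Tpm3 (Tpm3-rs7) that copy reached 3.35%, 2.79% and 2.3%. Myl12a has an active relative, Myl12b, with 96.6% identity over 555 aligned bases, whose counts came to 135% of its own. Arpc1b overlaps Pdap1, with 931 aligned bases shared unchanged, whose counts came to 7.78% of its own.

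Beyond the 37 members, 84 further genes of the pathway were listed and 82 tested. At 1 d in WT microglia 21 of them rose and 12 fell against sham, where 10.7% of all genes rose and 5.97% fell. Among the lists, 1 of 12 WAVE and WASP partners rose and 3 fell, and 6 of 12 genes of depolymerization and turnover rose and 1 fell. Diaph1, a formin that elongates unbranched filaments, went from 3.46 ± 0.507 to 13.7 ± 2.99 CPM (log2 fold change 1.98 ± 0.22, adjusted p = 3.8e-06). Ezr (ezrin, a linker of actin to the membrane) and the scaffold Iqgap1 changed by 3.16 ± 0.38 and 3.54 ± 0.47 on the log2 scale. Elmo1, a partner of the Rac activator Dock2, fell by 1.17 ± 0.16. In Fgg γ390–396A microglia at 1 d 11 of the 82 rose and 4 fell, where 7.6% of all genes rose and 2.19% fell. At 7 d 3 rose and 1 fell in WT mice, where 2.42% of all genes rose and 0.265% fell. None of the 82 passed in Fgg γ390–396A mice at 7 d, where 0.831% of all genes rose and 0.0546% fell. Of the 82, 11 had an unadjusted p under 0.05 in edgeR there, where 1808 of 23815 genes did. Between WT myeloid cells and microglia 26 were higher and 14 lower in the myeloid cells, where 7.56% of all genes were higher and 8.12% lower, with Myl12b (2.14) and the leukocyte actin-binding gene Lsp1 (3.25) among the higher, and the WAVE partner Abi3 (-1.64) and the cofilin kinase Limk1 (-1.98) among the lower.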

How the data were processed

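RNA of sorted mouse microglia and infiltrating myeloid cells was sequenced in 21 libraries (Ovation V2, a kit that does not mark strand, paired ends). The deposited values are estimated counts: the authors ran nf-core/rnaseq with STAR and salmon on GRCm38 and merged scaled gene counts, in which transcript length is divided out within a library and nothing is normalised between libraries. Their submission names R 4.2.0 and DESeq2 1.36.0. The table held 45706 genes, of which 45143 were named through GENCODE M21. Estimated counts were rounded, genes under 5 counts in total were left out, and 1 edgeR 4.0.16 quasi-likelihood fit (TMM, R 4.3.3) over all 21 libraries gave every comparison and interaction. An adjusted p (Benjamini-Hochberg over 23815 genes) under 0.05 was used for injury, time and cell type and under 0.1 for genotype. Values after ± are SE for fold changes and SD for levels. The SE is the absolute log2 fold change over the square root of F. Ratios and shares were compared by exact two-sided permutation tests (Python 3.11.15). The edgeR fit was tested on simulated data for 1 comparison, with less spread between libraries than was estimated here.

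The members and lists were chosen with earlier results of these data known. In each comparison up to 6 called members per direction were named by smallest adjusted p, with the 3 of smallest p where fewer than 3 passed, beside the members of ratios, and others were chosen after their values were seen. Groups came from the sample labels, and each library pools 2 brains, so p-values measure the spread between pools. Same-numbered Fgg γ390–396A and WT microglia at 1 d deviated together (correlations 0.53, 0.30 and 0.14), and the fit with a replicate block changed no member's call there. Intervals of depth cover counting error only. Copies of members were matched at 95% identity over at least 200 bases. Alternatives were DESeq2 1.42.0, other scalings, filters, samples and copies summed. Members called under these alternatives are given without the share of all genes called under the same setting. The scalings by totals, the summed copies and the counts of non-overlap under other scalings were added after seeing the data. Some results on the further genes of the pathway are not reported here.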

Additional observations from a re-analysis of the deposited data

How the results depend on the processing

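The count of called members depended on the tool, the scaling and the smallest fold required. The counts below describe the members alone, since the share of all genes called under the same setting is not given. With DESeq2 it was 12 for WT at 7 d against sham, 22 for Fgg γ390–396A from 1 d to 7 d, 5 and 1 between the genotypes in microglia at 1 d and 7 d, 2 in myeloid cells and 3 for the interaction of genotype with cell type. With library totals it was 19, 9 and 15 for WT at 1 d, WT at 7 d and Fgg γ390–396A at 1 d against sham, and 0 between the genotypes at 1 d. With a minimum log2 fold change of 1 it was 20 and 12 for WT and Fgg γ390–396A at 1 d against sham, 12 and 8 from 1 d to 7 d, 13 and 17 between cell types, and 0 between the genotypes in myeloid cells. In fits of only the groups compared, the genotype counts were 0, 1 and 0 in microglia at 1 d, at 7 d and in myeloid cells, and with copies summed they were 0 at 1 d and 0 in myeloid cells.

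Leaving out 1 library each time gave 5 to 8 called members for WT at 7 d against sham (8 without sham replicate 3), 9 to 20 for Fgg γ390–396A from 1 d to 7 d (9 without replicate 2 at 1 d, 20 without replicate 1), 0 to 3 between the genotypes at 1 d and 0 to 1 in myeloid cells. Small ratio differences changed sign in these fits. On the log2 scale they ran from -0.137 to 0.0237 for Actb to Actg1 at 1 d against sham, from -0.136 to 0.0407 for Arpc1b to Arpc1a and from -0.0964 to 0.0615 for Myl12a to Myh9 between the genotypes, and from -0.445 to 0.0378 for Myl12a to Myh9 at 7 d.

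Capza1 changed sign in WT mice at 7 d against sham (-0.40 with library totals, -0.065 with totals of protein-coding genes). With copies summed it did so against sham in Fgg γ390–396A microglia, at 0.75 for 1 d and 0.24 for 7 d, and between the genotypes at 7 d (0.069) and in myeloid cells (0.026). Its interaction of genotype with cell type was 0.317 with library totals and ran from -0.245 to 0.0529 without single libraries. The cause of these changes was not tested, other than for summed copies, where the counts of Gm3608 enter. Among the values of named members under the alternatives, 1124 kept direction and side of the threshold, 39 lost and 12 gained the threshold and 9 changed sign.

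A fit with the replicate number as a block gave 32, 7, 24 and 4 called members against sham (WT 1 d, WT 7 d, Fgg γ390–396A 1 d and 7 d), 24 and 16 between times, 23 and 27 between cell types, and 1, 0 and 1 between the genotypes, where Capza1 had an adjusted p of 0.069 at 1 d and 0.059 in myeloid cells. Except for Fgg γ390–396A and WT microglia at 1 d, same-numbered libraries did not all deviate together, so elsewhere the numbers are not taken as pairs. Depth limits Tpm2 and Gsn most, with as few as 13 and 27 counts in a library, and 3 libraries a group limit every test.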
